A study of Mus musculus with 29 samples.

Results

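The genes described here encode 10 enzymes that make triglyceride, or that make or oxidise the glycerol 3-phosphate it is built on, in subcutaneous white fat of the mouse. They are Gk, Pck1, Gpd1, Gpd2, Gpam, Agpat2, Agpat3, Lpin1, Dgat1 and Dgat2, of which Gpd2 is the one that oxidises glycerol 3-phosphate. They were taken by gene symbol, whatever their values, from the 17536 genes present in both deposited expression tables, and all 10 passed the filter on low values. RNA was sequenced from frozen subcutaneous fat of female and male mice that were wild type or carried a knockout of Ncoa1, a coactivator of nuclear receptors. Mice received CL316,243 (CL), an agonist of the β3-adrenergic receptor that switches on lipolysis and heat production in fat, at 0.5 mg/kg by intraperitoneal injection over 7 days, or NaCl. Wild-type mice numbered 2 females and 4 males under NaCl and 4 of each sex under CL. Knockouts numbered 3 females and 3 males under NaCl, and 3 females and 4 males under CL. Strain, age, the cells in which Ncoa1 is missing and whether littermates were used are not stated in the sources used here. The study's title gives sex differences in fat thermogenesis of these knockouts as its subject.

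An adipocyte stores fatty acids by joining them to glycerol 3-phosphate. This backbone comes from glucose by way of dihydroxyacetone phosphate, from pyruvate and lactate by glyceroneogenesis, or from glycerol itself. White adipocytes have long been held to make little use of the last route, because they hold little glycerol kinase. Acyltransferases then add fatty acids in turn to give lysophosphatidic acid and phosphatidic acid, a phosphatase gives diacylglycerol, and diacylglycerol acyltransferases give triglyceride. In fat under β3-adrenergic stimulation, breakdown and re-esterification of fatty acids run side by side, a cycle known from brown fat and from beige cells, the heat-producing adipocytes that appear within white depots.

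Levels are given as FPKM, which divides the fragments of a gene by transcript length and library size, so levels may be compared between genes. The 29 columns come from 2 tables made separately, and 2 column names (female wild type NaCl replicate 3 and male knockout NaCl replicate 3) occur in both. Columns that share a name were read as 1 mouse, which gives 27 mice. For the female such columns held Gpd1 at 498 and 1568 FPKM and Gpd2 at 16.4 and 56.3 FPKM, so they may not be the same mouse. A library's FPKM summed to between 563255 and 707161, with 11499 to 12632 genes at 1 FPKM or more, and its depth in reads is unknown. Ncoa1 stood at 1.47 to 2.90 FPKM in knockout columns and 4.93 to 9.16 FPKM in wild-type columns, and summed Y-linked genes at 40.4 to 61.4 FPKM in males and at most 0.07 FPKM in females.

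All 6 adipocyte markers (Adipoq, Plin1, Fabp4, Cidec, Retn and Lep) were detected, with sums of 16817 to 51895 FPKM per column. Their sums did not overlap between the female knockout groups (16817 to 28005 FPKM under NaCl, 35470 to 40307 FPKM under CL). In 4 mice the 10 skeletal muscle genes averaged over 5 on the log2(FPKM + 1) scale: female knockout NaCl replicate 2 (12.1), male wild type CL replicate 4 (8.20), male knockout NaCl replicate 1 (8.07) and male knockout CL replicate 4 (6.09). The 9 mammary epithelium genes summed to 132.6 to 769 FPKM in most female columns, to 43848 FPKM in the second column of female wild type NaCl replicate 3, and to at most 23.6 FPKM in males. Sums of the 7 brown and beige markers were higher in every CL column than in every NaCl column of the same sex and genotype. In wild-type males they were 324 to 762 FPKM under NaCl and 2917 to 5874 FPKM under CL. Single markers could overlap. In wild-type females Ucp1 was at 223.9 FPKM in the second column of NaCl replicate 3 and 139.19 FPKM in CL replicate 1. In knockout males Ucp1 reached 9.72 FPKM under NaCl and was as low as 6.97 FPKM under CL. In bulk fat, fewer cells of a type and less RNA per cell cannot be told apart.

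**Figure D1:**
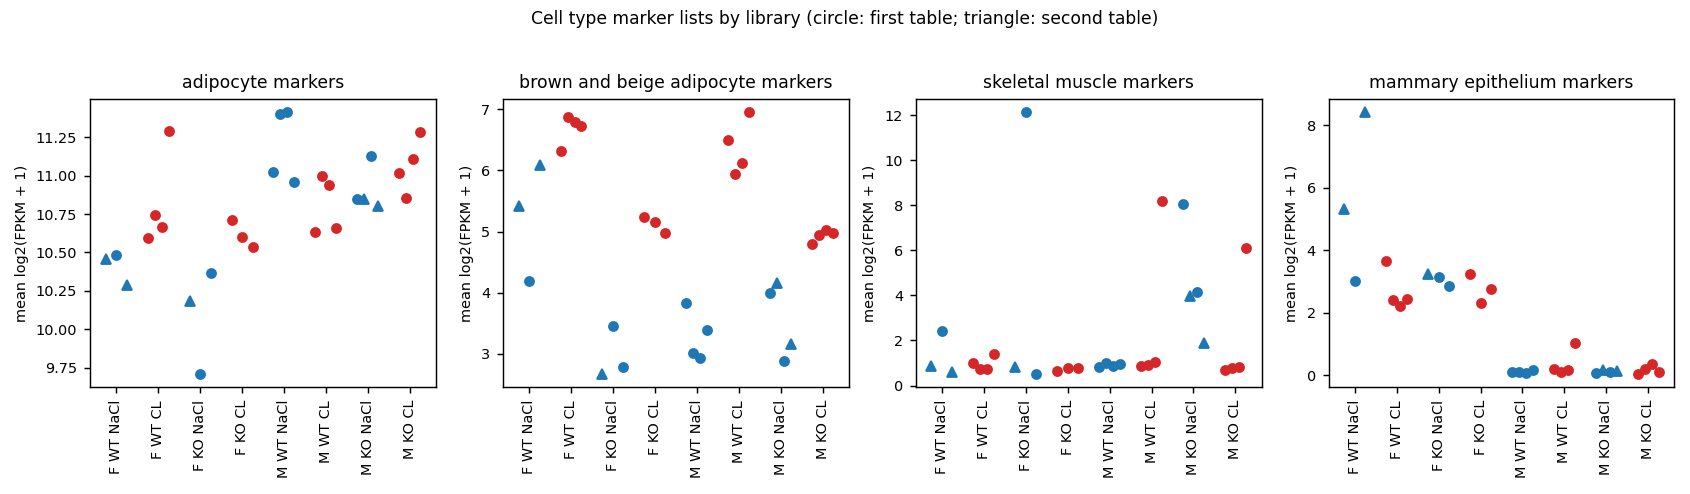
Mean log2(FPKM + 1) of the adipocyte, brown and beige adipocyte, skeletal muscle and mammary epithelium marker lists (y axes) in each library by group (x axis; F female, M male, WT wild type, KO knockout). Blue points are NaCl and red points CL, circles the first table and triangles the second. The muscle list reaches 12.1 in a female knockout NaCl library, and the mammary list reaches 8.41 in a female wild type NaCl library of the second table.

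Promoter sequence was available for 7 of the 10 genes. β3-adrenergic signals raise cyclic AMP, which acts on transcription through CREB at the cyclic AMP response element. ChREBP (encoded by Mlxipl), which senses glucose, acts at E-box type elements, and SREBP at these and at sterol response elements. The RefSeq windows of 250 bases before each annotated start (GRCm38.p6) were searched on both strands for ACGTCA, the core of the cyclic AMP element, and for the E-box CACGTG. The core was found in 2 of 9 windows of these genes, those of Pck1 and of the second Gpam start, and in 6.47% of all 32851 windows. The E-box was found in the Gk window and in 6.02% of all windows. The full element TGACGTCA, which contains the core, was found in 0 of the 9 windows, and in 1.55% of all. The windows with a match are shown so that the matched letters can be read in their context. They are given 5′ to 3′ on the gene's strand, with the matched letters in capitals. The Pck1 window lies at chr2:173152823-173153072 (+), with the match 91 bases before the start. The Gpam window lies at chr19:55099478-55099727 (-), with the match 32 bases before the start, and the Gk window at chrX:85776820-85777069 (-), with the match 58 bases before it. A match describes letters only and does not show that a factor binds there.
Pck1: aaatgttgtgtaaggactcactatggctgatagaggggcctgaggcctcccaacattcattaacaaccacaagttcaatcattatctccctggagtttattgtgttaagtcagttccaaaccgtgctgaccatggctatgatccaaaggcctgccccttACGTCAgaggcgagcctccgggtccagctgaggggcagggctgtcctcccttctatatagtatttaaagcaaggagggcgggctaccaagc
Gpam: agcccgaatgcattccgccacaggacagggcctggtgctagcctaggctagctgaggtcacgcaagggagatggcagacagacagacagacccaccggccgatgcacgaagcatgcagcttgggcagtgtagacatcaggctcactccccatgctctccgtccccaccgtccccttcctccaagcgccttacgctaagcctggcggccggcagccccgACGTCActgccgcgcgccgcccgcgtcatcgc
Gk: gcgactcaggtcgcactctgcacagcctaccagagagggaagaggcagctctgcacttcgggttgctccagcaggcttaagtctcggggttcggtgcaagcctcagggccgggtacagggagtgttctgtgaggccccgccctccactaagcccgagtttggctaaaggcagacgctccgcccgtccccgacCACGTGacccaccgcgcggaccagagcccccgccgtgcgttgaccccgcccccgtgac

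The level of these enzymes spans a wide range. Gpd1, Agpat2, Dgat2 and Pck1 were the most abundant, with group means of 517 to 2033, 461 to 1936, 421 to 1249 and 455 to 1297 FPKM. Dgat1 (118.8 to 245.5 FPKM), Agpat3 (59.0 to 87.8), Lpin1 (30.5 to 94.2), Gpam (23.1 to 91.2) and Gpd2 (15.8 to 58.1) followed, and Gk was lowest, at 1.56 to 4.66 FPKM. Female knockouts under NaCl had the lowest mean of the 8 groups for 6 genes (Gk, Gpd1, Agpat2, Agpat3, Lpin1 and Dgat2), and wild-type males under NaCl had the lowest for Gpd2, Gpam and Dgat1.

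**Figure D2:**
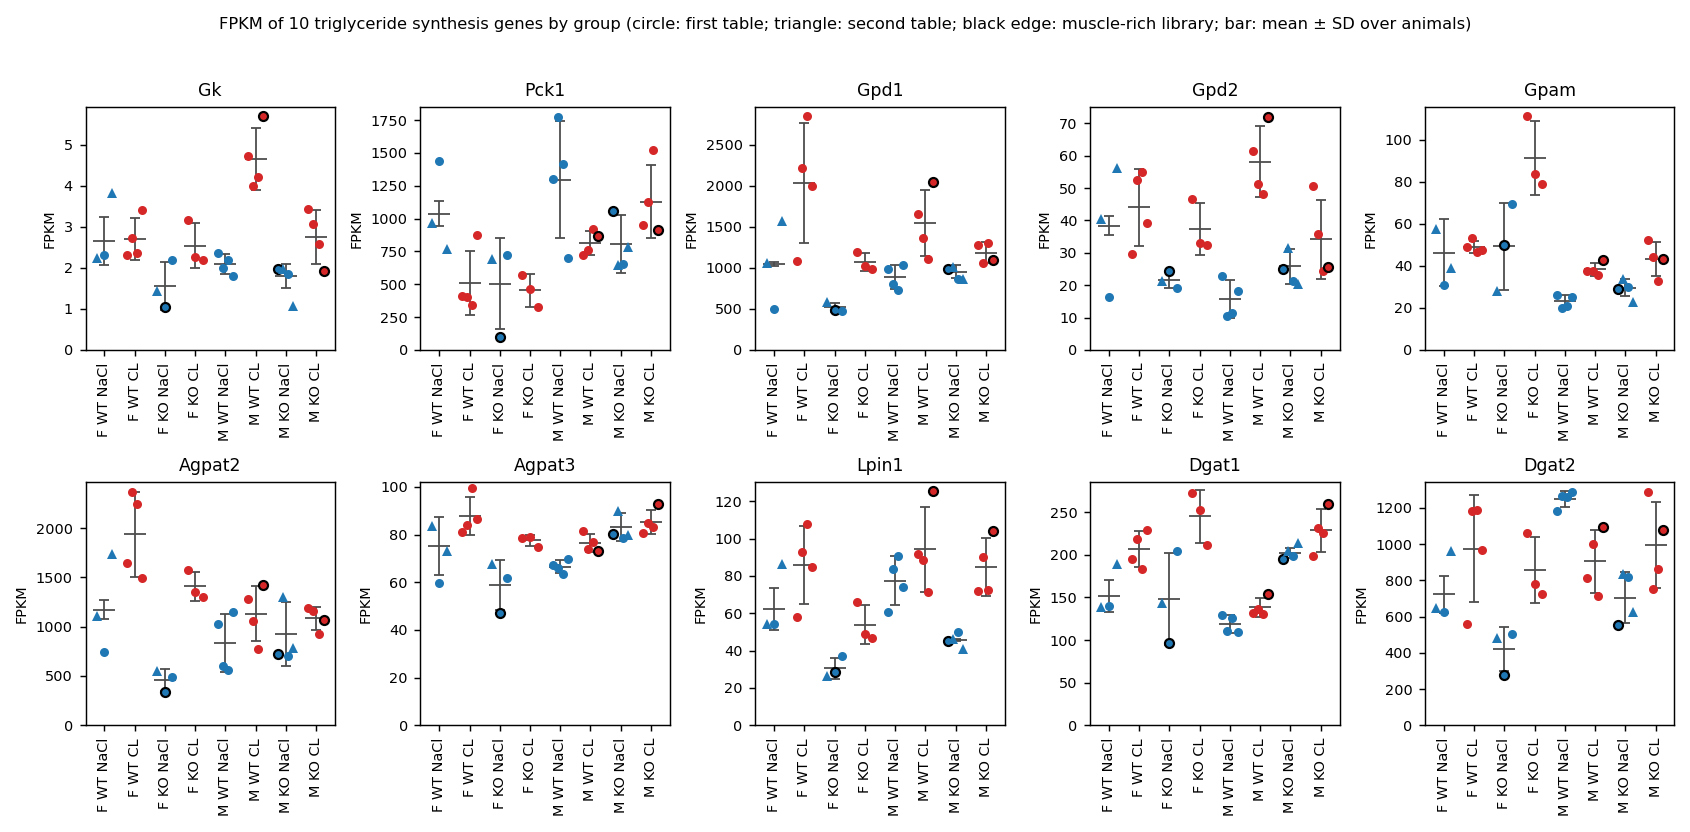
FPKM of each of the 10 genes (y axes, linear) in every column by group (x axis; F female, M male, WT wild type, KO knockout). Blue is NaCl and red CL, circles are the first table and triangles the second, a black edge marks a library rich in muscle genes, and bars give the mean ± SD over animals. Gk and Gpd2 stand highest in wild-type males under CL, and Dgat1 is higher in knockout than in wild-type males under both treatments.

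Differences between groups below are on the log2(FPKM + 1) scale, with their standard error, from 1 limma fit over all 13174 tested genes with the table as a covariate. The p-values were adjusted by the Benjamini-Hochberg method over these genes for each comparison, and a gene is said to have risen or fallen where its adjusted p was under 0.05. Comparisons that share a group are not independent of each other. Nothing in the labels says that mice of a group came from separate litters or cages, and p-values measure the spread between these samples.

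In wild-type males 4 of the 10 genes rose under CL: Gk, Gpd1, Gpd2 and the first acyltransferase, Gpam. Of all tested genes 11.3% passed in either direction and 5.35% rose. Gpd2 had the largest change of the 10, to 3.69 times its NaCl mean, and Gk rose to 2.23 times. Pck1, Agpat2, Agpat3, Lpin1, Dgat1 and Dgat2 did not pass the test, and the differences of Pck1 and Dgat2 were negative. The median difference of the 10 was 0.37, against -0.05 over all tested genes.

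Glycerol kinase, the product of Gk, phosphorylates glycerol, the product left when triglyceride is broken down. The level of Gk was 2.36, 2.00, 2.19 and 1.80 FPKM in the 4 NaCl males and 4.73, 3.99, 4.21 and 5.69 FPKM in the 4 CL males. Every CL male was above every NaCl male. The log2 difference was 0.87 ± 0.15 (adjusted p = 0.00073), and the call held in all 17 alternatives tried, with adjusted p from 0.00056 to 0.0052. Because Gk is low, the added 1 makes this smaller than the ratio of the means.

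Gpd2 encodes the mitochondrial glycerol 3-phosphate dehydrogenase, which oxidises glycerol 3-phosphate and hands the electrons to the respiratory chain. Its level was 22.9, 10.5, 11.4 and 18.1 FPKM under NaCl and 61.4, 51.1, 48.0 and 72.0 FPKM under CL in the wild-type males. The lowest CL male was far above the highest NaCl male. The log2 difference of Gpd2 was 1.87 ± 0.25 (adjusted p = 3.6e-05), and it too was called in all 17 alternatives.

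Gpd1, the cytosolic partner that makes glycerol 3-phosphate from dihydroxyacetone phosphate, was at 989, 802, 732 and 1033 FPKM under NaCl and 1659, 1367, 1108 and 2045 FPKM under CL. The groups did not overlap, but the lowest CL male lay close above the highest NaCl male. Gpd1 rose by 0.77 ± 0.22 (adjusted p = 0.024). The difference was 0.73 (adjusted p = 0.07) without CL replicate 1, 0.63 (0.10) without CL replicate 4, 0.73 (0.071) without NaCl replicate 2 and 0.69 (0.084) without NaCl replicate 3, so the size moved little and the call was lost in each.

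Pck1, the cytosolic phosphoenolpyruvate carboxykinase that carries glyceroneogenesis, stood at 1305, 1770.0, 1415 and 697 FPKM under NaCl and 721, 757, 920.3 and 865 FPKM under CL in the same males. All CL males lay inside the wide NaCl range. The log2 difference was -0.60 ± 0.44 (adjusted p = 0.46).

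Among the enzymes that add acyl groups, Gpam, the mitochondrial glycerol 3-phosphate acyltransferase, was at 26.3, 19.9, 20.7 and 25.4 FPKM under NaCl and 37.7, 37.3, 35.7 and 42.8 FPKM under CL. The groups did not overlap. Gpam rose by 0.72 ± 0.20 (adjusted p = 0.021), and its adjusted p became 0.073 without CL replicate 4, 0.075 without NaCl replicate 2 and 0.067 without NaCl replicate 3. Agpat2, which adds the second acyl group, had a difference of 0.48 ± 0.23 (adjusted p = 0.2). For the final step, Dgat2 was at 1184, 1265, 1259 and 1286 FPKM under NaCl and 813, 1003, 714 and 1096 FPKM under CL. Every CL male was below every NaCl male for Dgat2, yet the difference of -0.48 ± 0.23 (adjusted p = 0.2) did not pass. In all, 6 of the 10 genes had every CL value above every NaCl value and 1, Dgat2, had every CL value below, against 9.53% and 16.1% of tested genes.

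CL replicate 4 of the wild-type males, in which muscle genes were abundant, was the highest mouse for Gk, Gpd1, Gpd2 and Gpam. Muscle genes (10 of 10 detected) summed to 13.2 to 21.3 FPKM in the NaCl males and 19.2 to 4012 FPKM in the CL males. Without the muscle-rich libraries Gk and Gpd2 were still called, and Gpd1 (0.63, adjusted p = 0.11) and Gpam (0.66, adjusted p = 0.077) were not. Adipocyte markers (6 of 6) summed to 29737 to 40564 FPKM under NaCl and 34224 to 41979 FPKM under CL, so these ranges overlapped. Macrophage markers (7 of 7) summed to 739 to 1064 FPKM under NaCl and 418 to 675 FPKM under CL, without overlap. The part of other cell types in these changes was not tested.

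In knockout females 6 of the 10 genes rose under CL: Agpat2, Agpat3, Gpam, Dgat1, Dgat2 and Gpd1. Of all tested genes 7.42% passed in either direction and 5.14% rose (677 higher and 301 lower, or 722 and 176 after quantile normalization). All 10 fitted differences, which include the table term, were above 0, with a median of 0.80 against -0.02 over all tested genes. The Pck1 means ran the other way, at 505 ± 349 FPKM under NaCl and 455 ± 125 FPKM under CL (SD, n = 3 each). In 8 of the 10 every CL value was above every NaCl value, against 10.5% of tested genes. Gk, Pck1, Gpd2 and Lpin1 did not pass.

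Agpat2, whose loss in humans causes a congenital lack of fat, had the largest difference of the 10. It stood at 555, 341 and 487 FPKM in the 3 NaCl females and 1575, 1352 and 1298 FPKM in the 3 CL females. The lowest CL female was far above the highest NaCl female. The log2 difference was 1.81 ± 0.28 (adjusted p = 0.00049), and the call was lost in 1 of 15 alternatives, the fit of these groups alone (adjusted p = 0.17). Agpat3, a related lysophosphatidic acid acyltransferase, was at 67.8, 47.3 and 61.8 FPKM under NaCl and 78.6, 79.2 and 74.8 FPKM under CL. It rose by 0.50 ± 0.10 (adjusted p = 0.0042), a smaller change with little spread under CL.

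Dgat1 and Dgat2 encode unrelated enzymes that catalyse the same last step. Dgat1 was at 144, 96.4 and 205 FPKM under NaCl and 272, 253 and 211 FPKM under CL, with the highest NaCl female just under the lowest CL female. Its difference was 0.78 ± 0.19 (adjusted p = 0.015). Dgat2 was at 479.6, 279.6 and 505 FPKM under NaCl and 1063, 779 and 725 FPKM under CL, without overlap, and its difference was 1.17 ± 0.28 (adjusted p = 0.014).

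Gpam was at 28.1, 50.0 and 69.5 FPKM under NaCl and 111, 83.4 and 78.9 FPKM under CL in the knockout females, a difference of 0.85 ± 0.24 (adjusted p = 0.037). Gpd1 was at 583, 492 and 477 FPKM under NaCl and 1198, 1027 and 991 FPKM under CL, a difference of 1.12 ± 0.27 (adjusted p = 0.014). For both genes the groups did not overlap. The Gpam call was lost in 8 of 15 alternatives, among them the fit without NaCl replicate 1 (0.60, adjusted p = 0.062). Those of Gpd1, Agpat3, Dgat1 and Dgat2 were lost in 4, 3, 5 and 4. Gpd2 (0.81 ± 0.31 (adjusted p = 0.11)), Lpin1 (0.73 ± 0.23 (adjusted p = 0.059)) and Gk (0.45 ± 0.19 (adjusted p = 0.16)) had positive differences that did not pass.

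NaCl replicate 2 of the knockout females had the highest sum of muscle genes and the lowest sum of adipocyte markers of all libraries. It was the lowest of its group for Gk, Pck1 (102.2 FPKM), Agpat2, Agpat3, Dgat1 and Dgat2. Without it, 1 of the 10 genes (Agpat2) was still called, and 537 in place of 978 of all tested genes were. The differences of Gpd1 (1.12, adjusted p = 0.054) and Gpam (0.86, adjusted p = 0.10) then stayed near their values with all mice. Those of Agpat3 (0.36, adjusted p = 0.055), Dgat2 (0.86, adjusted p = 0.12) and Dgat1 (0.38, adjusted p = 0.17) were smaller. Without CL replicate 1, 2 of the 10 genes (Agpat2 and Agpat3) and 359 of all tested genes were called, and without NaCl replicate 3, 8 and 1684 were. Adipocyte markers (6 of 6) summed to 16817 to 28005 FPKM under NaCl and 35470 to 40307 FPKM under CL, and macrophage markers (7 of 7) to 1577 to 2617 and 820.7 to 1421 FPKM. How much of the rise follows these shifts was not tested.

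In wild-type females none of the 10 genes passed under limma, while 3.56% of all tested genes passed. An unadjusted p under 0.05 was held by 3 of the 10 (Gpd1, Agpat2 and Agpat3) and by 2902 of all 13174 tested genes. Gpd1 was at 1064 and, in the columns named replicate 3, 498 and 1568 FPKM under NaCl and 1077, 2218, 2845 and 1992 FPKM under CL. The columns of replicate 3 lay far apart. The log2 difference of Gpd1 was 1.14 ± 0.34 (adjusted p = 0.061), that of Agpat2 was 1.17 ± 0.35 (adjusted p = 0.066) and that of Agpat3 was 0.45 ± 0.13 (adjusted p = 0.053). No gene of the 10 had groups without overlap, against 7.45% of tested genes higher and 11.3% lower. Gk, which rose in the males, had means of 2.65 ± 0.583 (SD, n = 2) and 2.69 ± 0.505 (SD, n = 4) FPKM.

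Pck1 in wild-type females stood at 969 and, in the columns named replicate 3, 1439 and 768 FPKM under NaCl and 414, 405, 340.3 and 874 FPKM under CL. CL replicate 4 lay apart from the other CL females. The difference was -0.80 ± 0.68 (adjusted p = 0.5). Both NaCl wild-type females have columns in the second table, where mammary genes averaged 5.31 and 8.41 on the log2 scale against 2.21 to 3.67 in the CL females. The first table alone, with 1 NaCl female, called 4 of the 10 genes and 1799 of all tested genes, where all mice had given 469. Entering columns with a repeated name as separate mice called 3 of the 10 and 2080 of all. Leaving out CL replicate 1 or CL replicate 4 called 2 of the 10, and 581 or 877 of all.

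In knockout males none of the 10 genes passed either, while 7.25% of all tested genes passed. An unadjusted p under 0.05 was held by 2 of the 10 (Lpin1 and Dgat2) and by 2954 of all 13174 tested genes. All 10 fitted differences were above 0, with a median of 0.43 against 0.01 over all tested genes. Lpin1, the phosphatidate phosphatase whose product is also a transcriptional coactivator, was at 45.1 and 46.2 and, in the columns named replicate 3, 50.2 and 40.9 FPKM under NaCl and 71.8, 90.4, 72.7 and 104 FPKM under CL, without overlap. Its difference was 0.76 ± 0.24 (adjusted p = 0.053), and 4 of 16 alternatives called it, among them the fit without CL replicate 1. Gpd1 was the other gene without overlap, 2 of 10 against 7.21% of tested genes, with a difference of 0.41 ± 0.27 (adjusted p = 0.38).

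Gk in knockout males was at 1.97 and 1.97 and, in the columns named replicate 3, 1.85 and 1.06 FPKM under NaCl and 3.44, 3.06, 2.58 and 1.93 FPKM under CL, with some overlap, and differed by 0.37 ± 0.19 (adjusted p = 0.26). Gpd2 was at 25.0 and 31.6 and, in the columns named replicate 3, 21.2 and 20.3 FPKM under NaCl and 50.7, 35.9, 24.5 and 25.5 FPKM under CL, also with overlap, and differed by 0.45 ± 0.31 (adjusted p = 0.41). Dgat2 differed by 0.68 ± 0.28 (adjusted p = 0.16), in the direction opposite to that in wild-type males. Macrophage markers summed to 780 to 2779 FPKM in the NaCl and 349 to 739 FPKM in the CL knockout males, without overlap, while the adipocyte sums overlapped. NaCl replicate 1 and CL replicate 4 were muscle-rich, and CL replicate 4 was the highest for Lpin1. How far other cell types took part in these differences was not tested.

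**Figure D3:**
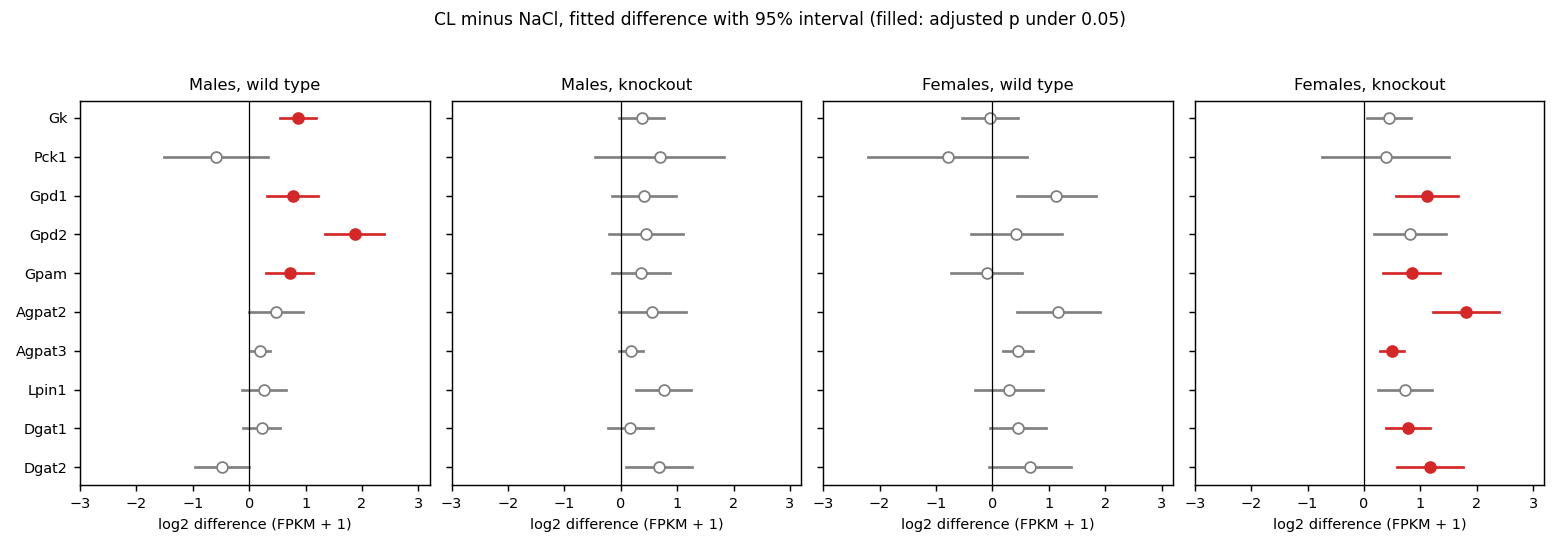
Fitted CL minus NaCl difference on the log2(FPKM + 1) scale (x axis) for each gene (y axis) in the 4 combinations of sex and genotype. Points are the differences, lines the 95% intervals, and filled red points have an adjusted p under 0.05. Filled points are Gk, Gpd1, Gpd2 and Gpam in wild-type males and Gpd1, Gpam, Agpat2, Agpat3, Dgat1 and Dgat2 in knockout females.

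Whether the CL effect differed between genotypes or sexes was tested by interaction terms, and no gene of the 10 passed. For genotype in males, 2 of 10 (Gpd2 and Dgat2) had an unadjusted p under 0.05, as did 1585 of all 13174 tested genes. After adjustment 0.0531% of all tested genes (7) passed. The CL effect on Gpd2 was smaller in knockout than in wild-type males by -1.42 (95% interval -2.25 to -0.59, adjusted p = 0.19), that on Gk differed by -0.50 (95% interval -1.01 to 0.01, adjusted p = 0.43), and that on Dgat2 by 1.16 (95% interval 0.40 to 1.92, adjusted p = 0.23). For genotype in females, 1 of 10 (Gpam) had an unadjusted p under 0.05, as did 628 of all 13174 tested genes. The Gpam interaction was 0.95 (95% interval 0.22 to 1.68, adjusted p = 0.93), and 0.0228% of tested genes (3) passed. The first table alone turned the sign of this Gpam term, to -0.040.

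For sex, 4 of 10 genes (Gk, Gpd2, Gpam and Dgat2) had an unadjusted p under 0.05 in wild types and 3 (Agpat2, Agpat3 and Dgat1) in knockouts, and none passed after adjustment. Among all 13174 tested genes, 1212 in wild types and 1334 in knockouts had an unadjusted p under 0.05. After adjustment 0.0228% and 0.0304% of all tested genes passed. The CL effect of females minus that of males was -1.44 (95% interval -2.40 to -0.48, adjusted p = 0.41) for Gpd2, -0.91 (95% interval -1.50 to -0.32, adjusted p = 0.41) for Gk and 1.15 (95% interval 0.28 to 2.02, adjusted p = 0.43) for Dgat2 in wild types. In knockouts it was 1.26 (95% interval 0.50 to 2.02, adjusted p = 0.22) for Agpat2. The calls in wild-type males and in knockout females are therefore not shown to be particular to these groups.

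Between genotypes, Dgat1 was higher in knockout than in wild-type males under both treatments. Under NaCl it stood at 129, 111, 126 and 109 FPKM in wild-type males and 196 and 205 and, in the columns named replicate 3, 199 and 214 FPKM in knockout males. Under CL it stood at 131, 137, 131 and 155 FPKM and 198, 232, 226 and 259.8 FPKM. The knockout columns were above every wild-type column within each treatment. The difference was 0.77 ± 0.19 (adjusted p = 0.02) under NaCl and 0.72 ± 0.15 (adjusted p = 0.015) under CL. The NaCl call was lost with the first table alone (adjusted p = 0.071), without knockout replicate 1 (0.087) and without wild-type replicate 2 (0.051), and the CL call without knockout replicate 4 (0.063) or wild-type replicate 1 (0.061). The differences stayed between 0.66 and 0.82 in these fits. Adipocyte markers summed to 42336 to 51895 FPKM in knockout and 34224 to 41979 FPKM in wild-type CL males. Brown and beige markers summed to 1445 to 2290 and 2917 to 5874 FPKM there, and neither list overlapped. Under NaCl both lists overlapped between these genotypes. Knockout NaCl replicate 1, knockout CL replicate 4 and wild-type CL replicate 4 were muscle-rich. The part of other cell types in these differences was not tested.

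Dgat2 went the other way in NaCl males. It was at 1184, 1265, 1259 and 1286 FPKM in wild types, a narrow range, and 553 and 833 and, in the columns named replicate 3, 820.1 and 628 FPKM in knockouts, all lower. The difference was -1.03 ± 0.28 (adjusted p = 0.031), and 8 of 16 alternatives lost the call, among them the fits without knockout replicate 1 or 3 or wild-type replicate 2, 3 or 4. Knockout NaCl replicate 1, muscle-rich, was the lowest for Dgat2, and without the muscle-rich libraries the difference was -0.64 (adjusted p = 0.32). Muscle genes summed to 38.8 to 3656 FPKM in these knockouts and 13.2 to 21.3 FPKM in the wild types. Under CL the Dgat2 means were 906 ± 174 FPKM in wild-type and 996 ± 236 FPKM in knockout males (SD, n = 4 each).

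In NaCl males 2 of 10 genes passed, Dgat1 higher and Dgat2 lower, against 7.34% of all tested genes. Lpin1 was at 60.7, 83.7, 90.9 and 74.3 FPKM in wild-type and 45.1 and 46.2 and, in the columns named replicate 3, 50.2 and 40.9 FPKM in knockout NaCl males, without overlap, and its difference of -0.63 ± 0.24 (adjusted p = 0.098) did not pass. In CL males 2 of 10 passed, Dgat1 higher and Gk lower, against 1.94%. Gk was at 4.73, 3.99, 4.21 and 5.69 FPKM in wild-type and 3.44, 3.06, 2.58 and 1.93 FPKM in knockout CL males, without overlap. The difference in Gk was -0.60 ± 0.15 (adjusted p = 0.046), and 15 of 17 alternatives lost the call, with adjusted p up to 0.24, among them each fit that left out 1 of these mice other than knockout replicate 1. Gpd2 differed by -0.79 ± 0.25 (adjusted p = 0.12) in the same comparison and passed without knockout replicate 1.

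In CL females 3 of 10 genes passed between genotypes, against 12.6% of all tested genes. Gpam was higher in the knockouts, at 49.0, 53.2, 46.7 and 47.7 FPKM in wild types and 111, 83.4 and 78.9 FPKM in knockouts, without overlap. The difference was 0.86 ± 0.21 (adjusted p = 0.015), and 1 of 16 alternatives lost it (without knockout replicate 1, adjusted p = 0.067). Gpd1 was lower in the knockouts by -0.84 ± 0.24 (adjusted p = 0.025), and Lpin1 by -0.64 ± 0.20 (adjusted p = 0.043). Lpin1 was at 57.9, 93.0, 108 and 84.8 FPKM in wild types and 66.2, 48.7 and 46.9 FPKM in knockouts, where the lowest wild-type female lay inside the knockout range. The Gpd1 call was lost in 8 and the Lpin1 call in 11 of 16 alternatives. Among them was each fit without wild-type replicate 2 or 3 or knockout replicate 2 or 3. Brown and beige markers summed to 4449 to 6748 FPKM in the wild types and 1753 to 2291 FPKM in the knockouts. Macrophage markers summed to 503 to 707 and 821 to 1421 FPKM. Neither list overlapped between these genotypes, while the adipocyte sums did. The part of other cell types in these differences was not tested.

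In NaCl females none of the 10 genes passed between genotypes, while 0.509% of all tested genes passed. An unadjusted p under 0.05 was held by 4 of the 10 (Gk, Gpd1, Agpat2 and Lpin1) and by 1218 of all 13174 tested genes. All 10 fitted differences, which include the table term, were below 0, with a median of -0.62 against 0.08 over all tested genes. The Gpam means ran the other way, at 46.2 ± 16.0 FPKM in wild types (SD, n = 2) and 49.2 ± 20.7 FPKM in knockouts (SD, n = 3). For 5 genes (Gk, Pck1, Agpat2, Lpin1 and Dgat2) every knockout column was below every wild-type column, against 4.62% of tested genes. Lpin1 was at 54.4 and, in the columns named replicate 3, 54.1 and 86.4 FPKM in wild types and 26.2, 28.5 and 36.9 FPKM in knockouts, a difference of -1.07 ± 0.26 (adjusted p = 0.074) that passed without knockout replicate 3. Agpat2 was at 1105 and, in the columns named replicate 3, 744 and 1733 FPKM and 555, 341 and 487 FPKM, a difference of -1.08 ± 0.32 (adjusted p = 0.17). Adipocyte markers summed to 28030 to 28541 FPKM in the wild types and 16817 to 28005 FPKM in the knockouts, and macrophage markers to 486 to 1612 and 1577 to 2617 FPKM. Muscle genes summed to 7.34 to 61.1 FPKM in the wild types and 5.27 to 63872 FPKM in the knockouts, where the muscle-rich replicate 2 was the lowest for Gk, Pck1, Agpat2 and Dgat2. Mammary genes reached 43848 FPKM in a wild-type column and at most 536 FPKM in the knockouts. Without knockout replicate 2 the differences were -1.02 for Lpin1 and -0.99 for Agpat2 (adjusted p = 0.11 and 0.22). The part of other cell types in these differences was not tested.

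**Figure D4:**
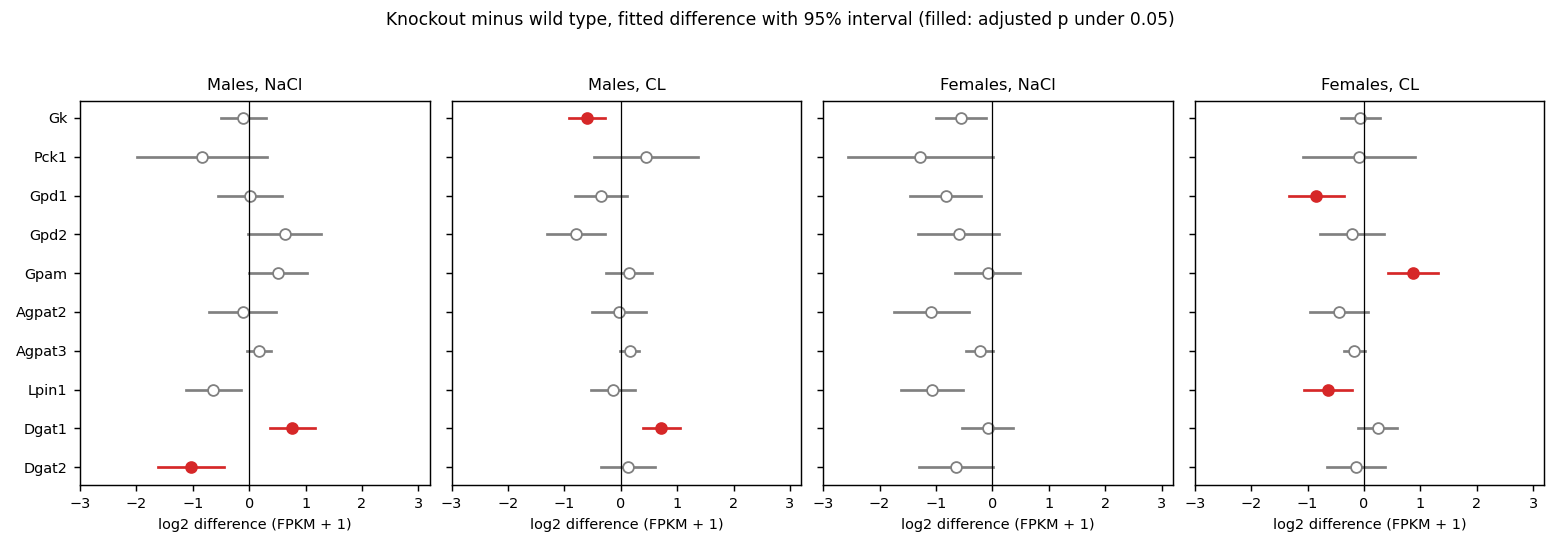
Fitted knockout minus wild type difference on the log2(FPKM + 1) scale (x axis) for each gene (y axis) in the 4 combinations of sex and treatment. Points are the differences, lines the 95% intervals, and filled points have an adjusted p under 0.05. Dgat1 is filled and above 0 in males under both treatments, and all 10 genes lie below 0 in NaCl females with none filled, although the unadjusted Gpam means ran the other way there.

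Between the sexes, Gpam was higher in females than in males among CL knockouts. It was at 111, 83.4 and 78.9 FPKM in females and 52.3, 44.3, 32.8 and 43.1 FPKM in males, without overlap. The difference of 1.07 ± 0.21 (adjusted p = 0.0027) was called in all 16 alternatives. In the same comparison Lpin1 was lower in females by -0.64 ± 0.20 (adjusted p = 0.046), lost in 10 of 16 alternatives (among them those without female replicate 2 or 3 or male replicate 2 or 4). So 2 of 10 genes passed, against 11% of all tested genes. Adipocyte markers summed to 35470 to 40307 FPKM in these females and 42336 to 51895 FPKM in these males. Macrophage markers summed to 821 to 1421 and 349 to 739 FPKM, and mammary genes to 239 to 730 and 0.24 to 3.22 FPKM. None of these lists overlapped between the sexes, and male replicate 4 was muscle-rich. The part of other cell types in these differences was not tested. Pck1 was at 573, 467 and 325 FPKM in females and 952, 1127, 1519.7 and 916 FPKM in males, all higher, and its difference of -1.32 ± 0.48 (adjusted p = 0.081) did not pass.

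In CL wild types 3 of 10 genes passed between sexes, against 17.9% of all tested genes. Gk was lower in females, at 2.30, 2.72, 2.36 and 3.40 FPKM against 4.73, 3.99, 4.21 and 5.69 FPKM in males, a difference of -0.61 ± 0.15 (adjusted p = 0.01). Dgat1 was higher in females, at 195, 219, 183 and 229 FPKM against 131, 137, 131 and 155 FPKM in males, a difference of 0.57 ± 0.15 (adjusted p = 0.016). Agpat2 was higher in females, at 1641, 2365, 2242 and 1497 FPKM against 1282, 1061, 770.5 and 1417 FPKM, a difference of 0.78 ± 0.23 (adjusted p = 0.023). None of the 3 overlapped between the sexes. Mammary genes summed to 132.63 to 768.93 FPKM in these females and 0.69 to 23.64 FPKM in these males. Their part in these differences was not tested. After quantile normalization none of the 3 passed (adjusted p = 0.054 for Gk, 0.054 for Dgat1 and 0.25 for Agpat2). Agpat2 was lost in 6 of 17 alternatives, among them those without replicate 2 or 3 of either sex, and Dgat1 without male replicate 3.

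In NaCl knockouts Gpd1, Agpat2 and Agpat3 were lower in females, 3 of 10 genes, where 7.77% of all tested genes passed in either direction and 3.3% were lower in females (589 higher and 435 lower, or 386 and 719 after quantile normalization). The differences were -0.85 ± 0.26 (adjusted p = 0.044) for Gpd1, -0.88 ± 0.27 (adjusted p = 0.048) for Agpat2 and -0.45 ± 0.10 (adjusted p = 0.0046) for Agpat3. Gpd1 was lost in 13 of 15 alternatives, among them each fit that left out 1 of these mice. Agpat2 was lost in 11, and Agpat3 in 4, among them those without replicate 1 of either sex. Adipocyte markers (6 of 6) summed to 16817 to 28005 FPKM in these females and 33188 to 42409 FPKM in these males, without overlap, and each group held a muscle-rich mouse (female replicate 2 and male replicate 1). Without the muscle-rich libraries the differences were -0.74 for Gpd1, -0.82 for Agpat2 and -0.31 for Agpat3, and none passed (adjusted p = 0.16, 0.15 and 0.074). The part of the adipocyte shift in these differences was not tested. Without female replicate 3, 5 genes passed, among them Dgat1, whose difference of -0.51 ± 0.18 (adjusted p = 0.096) did not pass in full. In NaCl wild types Gpam was higher in females, 1 of 10 genes, where 3.34% of all tested genes passed in either direction and 1.97% were higher. It stood at 57.5 and, in the columns named replicate 3, 31.1 and 38.9 FPKM in females and 26.3, 19.9, 20.7 and 25.4 FPKM in males, a difference of 1.17 ± 0.31 (adjusted p = 0.035). The call was lost without female replicate 1 or male replicate 2 or 3. With only the compared groups in the fit the sign turned (-0.13). Mammary genes summed to 240 to 43848 FPKM in these females and 0.59 to 1.38 FPKM in these males, without overlap. Their part in this difference was not tested. Dgat2 was lower in these females by -1.08 ± 0.35 (adjusted p = 0.1), which did not pass.

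Other genes of the pathway were read from 5 lists. Their counts stand against the shares of all tested genes that passed under CL, 11.3% in wild-type males, 7.42% in knockout females, 3.56% in wild-type females and 7.25% in knockout males. Between genotypes the shares were 12.6% in CL females, 0.509% in NaCl females, 1.94% in CL males and 7.34% in NaCl males. Among 14 genes that supply glycerol and pyruvate, CL in wild-type males raised 6 and lowered none. The mitochondrial pyruvate carrier subunits Mpc1 (1.54 ± 0.19 (adjusted p = 1.7e-05)) and Mpc2 (1.05 ± 0.19 (adjusted p = 0.00088)), mitochondrial malate dehydrogenase Mdh2 (1.17 ± 0.14 (adjusted p = 8.1e-06)) and the insulin-responsive glucose transporter Slc2a4 (0.91 ± 0.15 (adjusted p = 0.00047)) all rose. In knockout females 6 of these 14 rose and 2 fell, with Mpc1 at 1.30 ± 0.24 (adjusted p = 0.002) and Mpc2 at 1.18 ± 0.23 (adjusted p = 0.0037). The 2 that fell, named after their values were seen, were the aspartate aminotransferases Got1 (-1.78 ± 0.48 (adjusted p = 0.027)) and Got2 (-1.15 ± 0.32 (adjusted p = 0.033)). Without the muscle-rich NaCl replicate 2 their differences were -0.69 (adjusted p = 0.28) and -0.41 (adjusted p = 0.33), and neither passed. In wild-type females 2 rose (Mdh2 and Mpc2), and in knockout males 2 (Slc2a4 and Mdh2). The median difference of this list under CL was 0.47 in wild-type males, 0.19 in knockout females, 0.30 in wild-type females and 0.42 in knockout males, against -0.05, -0.02, -0.04 and 0.01 over all tested genes.

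Among 14 other glycerolipid enzymes CL raised 1 in wild-type males and 3 in knockout females, and in knockout males it raised 1 and lowered 1. Chpt1, which spends diacylglycerol on phosphatidylcholine, rose in wild-type males (0.77 ± 0.11 (adjusted p = 5.5e-05)), knockout females (0.91 ± 0.13 (adjusted p = 0.00027)) and knockout males (0.67 ± 0.13 (adjusted p = 0.0047)). It was the only one of the 14 to pass in wild-type males. In knockout females Mogat1 (0.80 ± 0.21 (adjusted p = 0.021)), a monoacylglycerol acyltransferase, and Gpat4 (0.74 ± 0.21 (adjusted p = 0.037)), a glycerol 3-phosphate acyltransferase of the endoplasmic reticulum, rose as well. Without NaCl replicate 2 neither passed, at 0.50 (adjusted p = 0.18) for Mogat1 and 0.47 (adjusted p = 0.25) for Gpat4. In knockout males Agpat4 fell (-0.84 ± 0.22 (adjusted p = 0.022)), and in wild-type females 0 of 14 passed. Between genotypes Gpat3, another glycerol 3-phosphate acyltransferase, was higher in the knockouts in CL females (1.18 ± 0.25 (adjusted p = 0.008)), as were Cept1 and Agpat4, and Gpat4 was higher in knockout CL males (0.70 ± 0.17 (adjusted p = 0.039)), as was Gpat3. Chpt1 was lower in knockout NaCl females (-0.72 ± 0.15 (adjusted p = 0.027)) and higher in knockout NaCl males (0.46 ± 0.13 (adjusted p = 0.04)).

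Of 6 breakdown genes, Pnpla2, the lipase that starts triglyceride hydrolysis, rose under CL in all 4 combinations of sex and genotype, by 0.45 ± 0.14 (adjusted p = 0.036) in wild-type males, 1.03 ± 0.21 (adjusted p = 0.011) in wild-type females, 0.82 ± 0.17 (adjusted p = 0.0055) in knockout males and 1.07 ± 0.17 (adjusted p = 0.0005) in knockout females. The call in wild-type males was lost in 10 of 17 alternatives. G0s2, an inhibitor of that lipase, fell in wild-type males (-1.07 ± 0.23 (adjusted p = 0.0039)). Knockouts had lower G0s2 than wild types in NaCl males (-1.37 ± 0.29 (adjusted p = 0.0064)) and in CL females (-0.82 ± 0.25 (adjusted p = 0.036)), where Pnpla2 was lower too (-0.68 ± 0.15 (adjusted p = 0.0083)). Mgll was also lower in knockout CL females (-0.59, adjusted p = 0.014), and Plin1 in knockout NaCl males (-0.87, adjusted p = 0.036). Under CL, Lipe rose in knockout females (0.73, adjusted p = 0.044), a call lost in 9 of 15 alternatives. Of 5 genes of lipid droplet formation, Lpcat3, a phospholipid acyltransferase, rose under CL in wild-type males (0.56 ± 0.15 (adjusted p = 0.021)), knockout males (0.70 ± 0.19 (adjusted p = 0.03)) and knockout females (1.05 ± 0.19 (adjusted p = 0.0018)), and Bscl2, which encodes seipin, in knockout females (0.87 ± 0.15 (adjusted p = 0.0017)).

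Of 10 regulators, Ppara (1.36 ± 0.23 (adjusted p = 0.00043)) and Mlxipl (0.86 ± 0.19 (adjusted p = 0.0039)) rose and Nr1h3 and Nr3c1 fell under CL in wild-type males, and Srebf1 rose in knockout females (1.13 ± 0.23 (adjusted p = 0.0045)). In wild-type females and knockout males 0 of these 10 passed. Of the list genes named with values, Mpc1, Mpc2, Mdh2, Slc2a4, Chpt1, G0s2, Ppara and Mlxipl in CL wild-type males held in all 17 alternatives, and each other call was lost in at least 1, that of Chpt1 between NaCl males in 12 of 16.

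Over the 8 group means adjusted for the table, Agpat2 varied most among the 10, by 2.25 on the log2 scale, followed by Gpd1 (1.96), Gpam (1.93) and Gpd2 (1.87). The genes whose centred means lay closest to each, by root mean square difference over the 8 groups, were Insig1 (0.16), Aacs (0.20) and Mcrip2 (0.21) for Agpat2. For Gpd1 they were Cox8a (0.091), Acsf3 (0.14) and Pgam1 (0.155), and for Gpd2 they were Cox7b (0.15), Pdha1 (0.155) and Acaca (0.16). Gpam had less close ones, Hpn (0.20), Prune2 (0.22) and Cspg5 (0.22).

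In the GRCm38 annotations, Gpd1 and Gpam overlap long noncoding RNA genes (Gm16537, and Gm31356 with Gm31418), Agpat3 overlaps Gm40709, Lpin1 overlaps Ntsr2, and Gpd2 overlaps the pseudogene Gm13535. Whether counting used the strand is not stated, and overlap of exons was not examined. Reads from these partners may therefore be mixed with those of the named genes.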

How the data were processed

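RNA from frozen subcutaneous fat was sequenced on a DNA nanoball instrument, per the labels' protocols. The submitters' processing notes list HISAT2 2.0.4 together with the build GRCm38/mm10. The deposited values are FPKM per gene in 2 tables, normalized by the authors. The program and annotation were not given in the sources used here. Treatment labels of CL samples count upward from CL316,243, so groups follow the sample titles. Of 29 sample records, 2 had no column, and columns that share a name were averaged on the log2 scale, which left 27 mice. No read counts could be recovered, because the smallest values left at most 45 genes per library to estimate the worth of 1 read.

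The fit used limma 3.58.1 with R 4.3.3 on log2(FPKM + 1), with an intensity trend in the prior variance and two-sided moderated tests. A total of 13174 genes reached 1 FPKM in 3 or more mice and were tested. It held 8 group means and a covariate for the table, 0.5 for mice averaged over both, with 18 residual degrees of freedom. The second table holds female wild type NaCl replicates 1 and 3, female knockout NaCl replicate 1 and male knockout NaCl replicates 2 and 3. Within each of 16 comparisons p-values were adjusted over all tested genes, with a threshold of 0.05. SDs are over animals, so the SD of a group with a repeated name leaves out how far those columns lie apart, and whether groups overlap was read from columns. The fit was also run on simulated data with independent noise and known added differences. The simulation held no table effect, repeated name or muscle-rich library, so it cannot show how the fit handles these. Alternatives were quantile normalization, a pseudocount of 0.1, no filter, no table term, the first table alone, repeated names as separate animals, only the compared groups, the replicate number as a block, no muscle-rich libraries (mean log2 of muscle genes over 5), and each mouse left out. All 10 genes are described, with up to 4 genes of a pathway list per comparison by smallest p, and the 3 genes most alike for the 4 with the widest range. The genes and lists were chosen with earlier results of these data known.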

Additional observations from a re-analysis of the deposited data

Results flagged for a closer look

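Of 40 groups of 4 mice or more tested over the 10 genes, 1 held a sample that lay apart. Pck1 stood at 873.56 FPKM in female wild type CL replicate 4, while the other 3 mice of that group stood between 340.32 and 413.79 FPKM. The gap to the nearest mouse was 0.862 of the whole range. Chance alone flags about 1 in 20 such groups.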

How the results depend on the processing

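Values are the number of the 10 genes past the test, with CL effects in females (0 in wild types as reported and 6 in knockouts) and in males (4 and 0), knockout against wild type in NaCl females (0), CL females (3), NaCl males (2) and CL males (2), and female against male in NaCl wild types (1), CL wild types (3), NaCl knockouts (3) and CL knockouts (2). Results not named under a setting stayed within 1.5 times the reported count there, and the 4 interactions stayed at 0 outside the fits that leave out a mouse. With quantile normalization the counts were 1 for CL in knockout males, 1, 1 and 1 for knockout against wild type in NaCl females, CL females and CL males, and 0 for sex in CL wild types. A pseudocount of 0.1 gave 1 for genotype in CL males. No filter gave 1 for CL in wild-type females, 1 for genotype in CL males, and 1 and 1 for sex in NaCl and CL knockouts. No table term gave 1 and 1 for CL in wild-type females and knockout males, 1 for genotype in NaCl females and 2 for sex in NaCl wild types. The first table alone gave 4 for CL in wild-type females, 0 and 1 for genotype in NaCl and CL males, and 0 and 1 for sex in NaCl wild types and CL knockouts. Repeated names as separate animals gave 3 and 1 for CL in wild-type females and knockout males, 1, 1 and 1 for genotype in NaCl females, CL females and CL males, and 1 and 1 for sex in NaCl and CL knockouts. Only the groups compared gave 0 for CL in knockout females, 1 and 1 for genotype in CL females and CL males, and 0 and 0 for sex in NaCl wild types and NaCl knockouts. Without the muscle-rich libraries the counts were 1 and 2 for CL in knockout females and wild-type males, 1 and 1 for genotype in NaCl and CL males, and 0 for sex in NaCl knockouts. The replicate block gave 1, 1 and 1 for genotype in CL females, NaCl males and CL males, and 1 and 1 for sex in NaCl and CL knockouts. Mice with the same replicate number did not deviate together (83 pairs, correlation from -0.82 to 0.78, median -0.02), so the block pairs mice by number only.

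With each mouse left out in turn, counts for CL ranged from 0 to 2 in wild-type females, 1 to 8 in knockout females, 2 to 4 in wild-type males and 0 to 1 in knockout males. For genotype they ranged from 0 to 1 in NaCl females, 1 to 3 in CL females, 0 to 2 in NaCl males and 0 to 3 in CL males. For sex they ranged from 0 to 1 in NaCl wild types, 1 to 4 in CL wild types, 0 to 5 in NaCl knockouts and 1 to 2 in CL knockouts, and for sex by treatment in knockouts from 0 to 2. Gpam turned sign in 2 results, to -0.13 for sex in NaCl wild types with only the groups compared and to -0.040 for genotype by treatment in females with the first table alone, and the causes were not tested. Quantile normalization moved the split of all called genes, higher against lower, from 1187 and 478 to 553 and 551 for genotype in CL females and from 1110 and 341 to 742 and 805 for sex in CL knockouts, and shifted the median of all genes by over 0.1 in sex comparisons (NaCl knockouts from 0.10 to -0.06, CL knockouts from 0.09 to -0.04). Groups of 2 to 4 mice, unknown depth and a table term that touches 3 of the 4 NaCl groups limit the precision of all values.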
